A study of Mus musculus with 12 samples.

Results

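The genes described here, 10 in number, serve extracellular nucleotide and adenosine signalling and were measured in primary mouse microglia: the nucleotide receptors P2ry12, P2ry13, P2ry6, P2ry2, P2rx4 and P2rx7, the ectonucleotidases Entpd1 and Nt5e, and the adenosine receptors Adora2b and Adora3. They were taken by gene symbol from the 46262 genes in the deposited table, and the transcript values of each were summed. The cells were wild-type (WT) microglia, the resident macrophages of the brain, obtained from mixed glial cultures of cerebellum or forebrain and exposed for 24 hours to IL-34 at 100 ng/ml or to CSF-1 at 20 ng/ml. Both are ligands of the receptor Csf1r, on which microglia depend for survival. The 4 groups were cerebellum with IL-34, cerebellum with CSF-1, forebrain with IL-34 and forebrain with CSF-1, with 3 libraries each from separate mixed glial cultures. No group went without a ligand and the doses of the ligands differed, so each ligand comparison sets one ligand at its dose against the other at its dose. The deposited table is named as one of neonatal microglia, and the labels give no strain, sex or further detail of age.

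Cells release ATP, ADP and uracil nucleotides when they are damaged or active, and neighbouring cells sense them through ion channels of the P2X family and G protein coupled receptors of the P2Y family. Ectonucleotidases then strip the phosphates: the product of Entpd1 (CD39) converts ATP and ADP to AMP, and the product of Nt5e (CD73) converts AMP to adenosine, which acts on adenosine receptors. In microglia this system is known for guiding processes towards injury through P2ry12, for uptake of debris through P2ry6 and for release of inflammatory cytokines through P2rx7.

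Across the 12 libraries the ion channel P2rx4 and the ectonucleotidase Entpd1 rose, and the UDP receptor P2ry6 fell, with IL-34 compared with CSF-1. In forebrain alone no member passed the ligand test (adjusted p under 0.05 in limma). Entpd1 was also higher, and Adora2b, P2rx7, P2ry12 and P2ry6 were lower, in cerebellum than in forebrain as the mean of both ligands. P2ry12 passed under neither ligand alone. The mean region difference of P2ry6 passed in only 3 of 12 fits that left out a library. Summed over all transcripts, Entpd1 had the widest span of group means among the members tested, 2.35-fold between the highest and the lowest group, followed by Adora2b with 2.16-fold. Over coding transcripts alone that order turned. The group means then ran from 10.8 to 21.9 TPM for Entpd1 and from 8.04 to 17.3 TPM for Adora2b. Nt5e stayed under 1 TPM in every library. TPM is a length-corrected share of a library, so levels can be set side by side between genes, and every library sums to 1000000. Since these are bulk samples, fewer cells with a transcript and less of it per cell cannot be told apart.

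Between 11740 and 11904 genes per library reached 1 TPM, and the depth behind the values is unknown. Of 12 microglia markers, 11 were tested, with Csf1r at 1128 to 1331 TPM over all libraries, while Siglech stayed under 1 TPM. Tmem119 averaged 18.9 TPM under IL-34 and 18.8 TPM under CSF-1 in cerebellum, against 8.86 and 8.88 TPM in forebrain. The summed microglia list was 6851 to 7725 TPM in cerebellum IL-34, 6110 to 6876 in cerebellum CSF-1, 5768 to 6045 in forebrain IL-34 and 5612 to 6475 in forebrain CSF-1 libraries. That sum includes Tyrobp, a short transcript listed at 0 in 3 libraries and at up to 2138 TPM in others. Markers of other cells were low but differed by region. The summed astrocyte list (6 of 8 genes tested) was 14.5 to 19.8 TPM in cerebellum and 28.9 to 31.7 TPM in forebrain, and the mesenchymal list (3 of 8) was 4.73 to 7.83 TPM in cerebellum and 11.5 to 19.1 TPM in forebrain. Acta2 and Tagln made up most of the mesenchymal sum. Col1a2 of that list and S100b of the astrocyte list, both under 1 TPM, had higher means in cerebellum. The oligodendrocyte lineage list (4 of 8) was 72.1 to 97.2 TPM in cerebellum and 55.8 to 69.7 TPM in forebrain. Choroid plexus genes (2 of 3) were 9.41 to 39.2 TPM in cerebellum and 0.212 to 1.01 TPM in forebrain. The border macrophage list (2 of 4, with Lyve1 and Cd163 under 1 TPM) was 106 to 156 TPM in cerebellum IL-34, 30.8 to 114 in cerebellum CSF-1, 38.2 to 79.3 in forebrain IL-34 and 36.8 to 83.6 in forebrain CSF-1 libraries. Most of the sum in cerebellum IL-34 libraries was Pf4, a gene with transcripts of 588 nt on average that was listed at 0 in 3 libraries, whereas Mrc1 averaged 25.5 TPM in cerebellum IL-34, 29.7 in cerebellum CSF-1, 35.3 in forebrain IL-34 and 37.8 in forebrain CSF-1 libraries. Immediate early and heat shock genes summed to 624 to 645, 573 to 616, 534 to 607 and 493 to 539 TPM in the group order used for Mrc1. All 4 neuronal markers stayed under 1 TPM. The endothelial list (3 of 4) was 9.84 to 12.8 TPM in cerebellum and 6.89 to 11.9 TPM in forebrain. Its member Cldn5 was listed at 0 in all libraries. The share of TPM assigned to transcripts shorter than 600 nt was 2.58, 3.31 and 0.947% in cerebellum IL-34 libraries, against 0.0269 to 0.555% in the other 9. Replicates 1 and 2 of cerebellum IL-34 thus stood furthest apart. The lowest shares were 0.0277% in cerebellum CSF-1 replicate 1, 0.0269% in forebrain IL-34 replicate 1 and 0.0302% in forebrain CSF-1 replicate 3. Tyrobp and Pf4 were listed at 0 in these 3 libraries. The part of these library differences in the results below was not tested. The exceptions are values given without cerebellum IL-34 replicates 1 and 2 or without short transcripts.

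**Figure D1:**
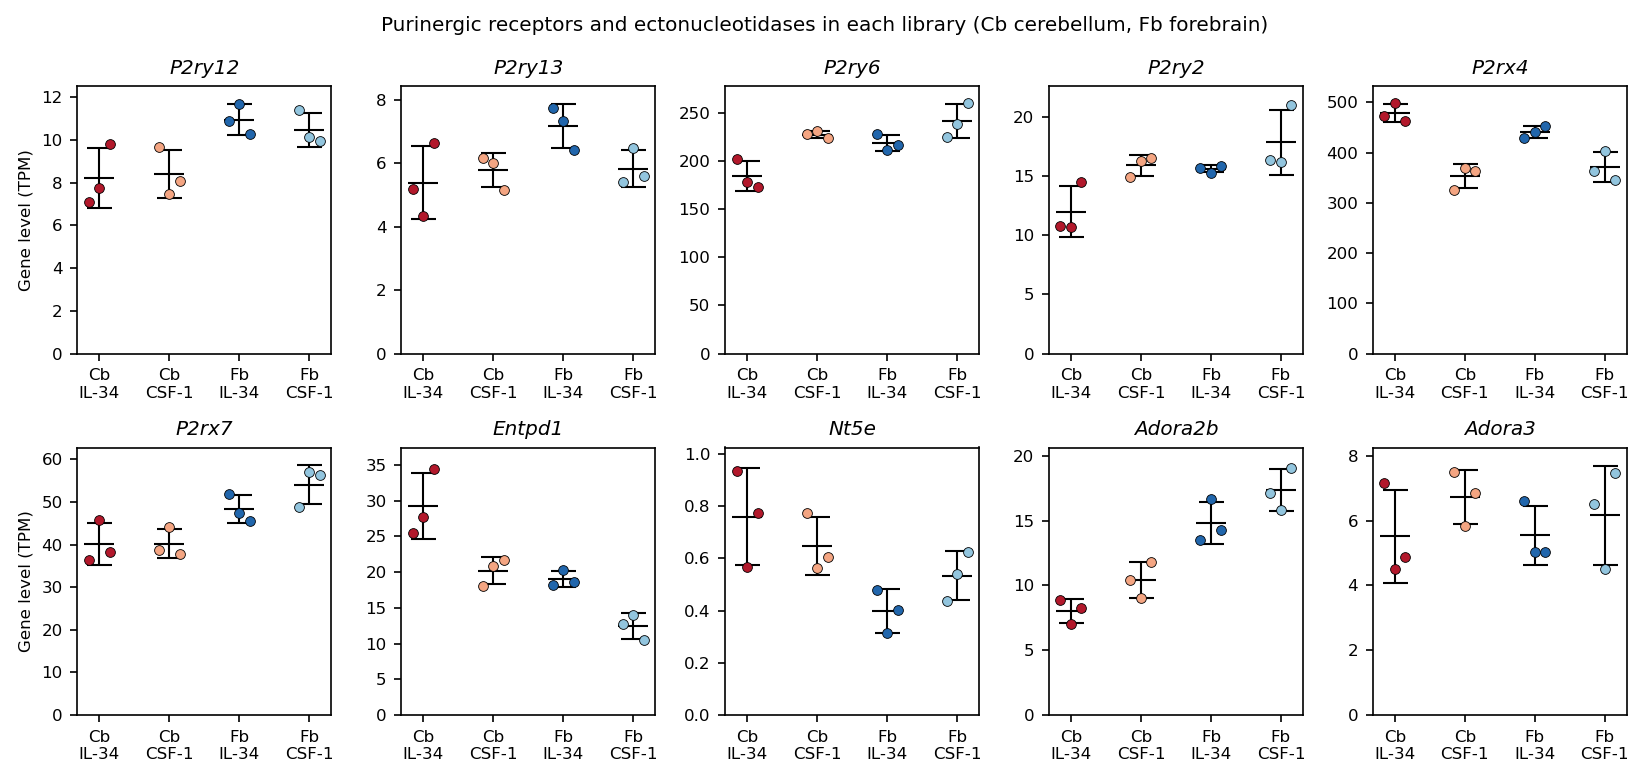
Level of each of the 10 genes in every library, in TPM on a linear axis that starts at 0, with cerebellum (Cb) left of forebrain (Fb) and IL-34 left of CSF-1. Points are libraries and bars are the mean and SD of 3. Entpd1 spans 10.5 to 34.5 TPM and is highest in the cerebellum IL-34 libraries, P2rx4 is higher in the IL-34 libraries of both regions, and Adora2b is lower in all 6 cerebellum libraries than in any forebrain library.

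The members' levels spanned a wide range. P2rx4 averaged 411 TPM over the 12 libraries, above 97.8% of the 12419 genes tested (at least 1 TPM in at least 3 libraries), and P2ry6 averaged 218 TPM, above 94.8%. P2rx7 followed at 45.7 TPM and Entpd1 at 20.2 TPM. The next neighbours in the order overlapped in their ranges: P2ry2 spanned 10.7 to 20.96 TPM, Adora2b 6.996 to 19.1 TPM and P2ry12 7.10 to 11.7 TPM. P2ry13 (4.35 to 7.75 TPM) and Adora3 (4.50 to 7.50 TPM) were close to each other, with means of 6.04 and 5.99 TPM. P2ry12, often used as a marker of microglia in the intact brain, lay above 34.8% of the genes tested. The members summed to 772 TPM in cerebellum IL-34, 689 in cerebellum CSF-1, 782 in forebrain IL-34 and 737 in forebrain CSF-1 libraries on average, of which P2rx4 took 62.0, 51.2, 56.5 and 50.4% and P2ry6 23.8, 33.0, 28.0 and 32.7% in that order.

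Among the G protein coupled nucleotide receptors, P2ry6 (chr7:100937630-100974649, minus strand, GRCm38), the receptor for UDP, was the most abundant. It had 201.5, 178 and 172 TPM in cerebellum IL-34 libraries, against 228, 231 and 224 TPM in cerebellum CSF-1 libraries. Forebrain libraries had 228, 211 and 217 TPM with IL-34, against 225, 238 and 260 TPM with CSF-1. The cerebellum IL-34 libraries were the lowest of all 12 and did not overlap any other group, whereas the forebrain groups overlapped by replicate 1 of each. In limma on log2(TPM + 1), P2ry6 fell by 0.31 with IL-34 in cerebellum (log2 difference -0.31, SE 0.0679, 95% interval -0.46 to -0.16, adjusted p = 0.0187) and by 0.22 as the mean of both regions (log2 difference -0.22, adjusted p = 0.0136), on means of 184 ± 15.4 and 227 ± 3.83 TPM in cerebellum IL-34 and CSF-1 libraries and 219 ± 8.66 and 241 ± 17.7 TPM in forebrain IL-34 and CSF-1 libraries (SD, n = 3 each). In forebrain alone the test was not passed (adjusted p = 0.392, 95% interval -0.29 to 0.01).

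The P2ry6 calls depended on the scaling, on a replicate block and on single libraries. A replicate block fitted within each region, which compares the ligands between same-numbered libraries, kept neither ligand call. Median-of-ratios scaling, which moved the median log2 difference of all genes in cerebellum to 0.00281, against -0.0996 without it, gave P2ry6 a difference of -0.19 there (adjusted p = 0.0749) and -0.14 for the mean of both regions (adjusted p = 0.0614). Leaving out cerebellum IL-34 replicate 2 or cerebellum CSF-1 replicate 1 or 2 took the adjusted p in cerebellum to 0.0792, 0.0629 and 0.0588, and leaving out cerebellum IL-34 replicates 1 and 2 together took it to 0.0958 (difference -0.40). P2ry6 was also lower in cerebellum than in forebrain under IL-34 (log2 difference -0.25, SE 0.0679, adjusted p = 0.0333) and as the mean of both ligands (-0.17, adjusted p = 0.0323). The first of these was lost without cerebellum IL-34 replicate 2 or 3 or any forebrain IL-34 library (adjusted p 0.0581 to 0.114), without cerebellum IL-34 replicates 1 and 2 together (0.0858), with no filter on low values (0.0701) and with only its groups fitted (0.0763). The second was lost without cerebellum IL-34 replicate 2 or 3, any cerebellum CSF-1 library, forebrain IL-34 replicate 1 or 3, or forebrain CSF-1 replicate 2 or 3 (0.0525 to 0.0744), and with no filter (0.065). A replicate block over all groups lost both region calls.

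P2ry12 (chr3:59216272-59262871, minus strand), the ADP receptor that steers microglial processes, showed no ligand difference that passed the test. It had 7.10, 7.76 and 9.81 TPM in cerebellum IL-34 and 9.64, 7.47 and 8.08 TPM in cerebellum CSF-1 libraries, and 10.9, 11.7 and 10.3 TPM in forebrain IL-34 and 11.4, 10.1 and 9.93 TPM in forebrain CSF-1 libraries. The ligand groups overlapped in both regions, while every cerebellum library lay under every forebrain library of the same ligand. P2ry12 fell by 0.34 in cerebellum as the mean of both ligands (log2 difference -0.34, SE 0.0878, adjusted p = 0.0205, 95% interval -0.53 to -0.14), although neither ligand passed alone (adjusted p = 0.0653 under IL-34 and 0.189 under CSF-1). Under IL-34 it passed without cerebellum IL-34 replicate 3 (-0.50, 0.0197). The call for the mean was lost without cerebellum CSF-1 replicate 2 (adjusted p = 0.0533), forebrain IL-34 replicate 2 (0.0504) or forebrain CSF-1 replicate 1 (0.0505), and the difference was -0.22 without cerebellum IL-34 replicates 1 and 2 (0.19) and -0.22 (0.011) over transcripts of at least 1000 nt with trends of length and GC content removed. For IL-34 against CSF-1 the 95% interval was -0.30 to 0.24 in cerebellum and -0.22 to 0.33 in forebrain.

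P2ry13 (chr3:59207892-59210882, minus strand), a second ADP receptor next to P2ry12, had 5.17, 4.35 and 6.62 TPM in cerebellum IL-34 and 6.15, 6.02 and 5.15 TPM in cerebellum CSF-1 libraries. Forebrain libraries had 7.75, 7.33 and 6.42 TPM with IL-34 and 5.40, 6.49 and 5.58 TPM with CSF-1. The highest values were in forebrain IL-34 libraries, but every pair of groups compared overlapped. No contrast passed, the closest being cerebellum against forebrain under IL-34 (log2 difference -0.37, SE 0.138, adjusted p = 0.102), which passed without cerebellum IL-34 replicate 3 (-0.50, adjusted p = 0.0284). P2ry12 and P2ry13 both lie inside Med12l, which runs on the opposite strand and had 0.168 to 0.407 TPM. The library chemistry does not mark strand, so reads of overlapping genes cannot be told apart.

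P2ry2 (chr7:100996568-101012866, minus strand), the receptor for ATP and UTP, had 10.8, 10.7 and 14.5 TPM in cerebellum IL-34, against 14.9, 16.3 and 16.6 TPM in cerebellum CSF-1 libraries. It had 15.7, 15.3 and 15.9 TPM in forebrain IL-34, against 16.4, 16.2 and 20.96 TPM in forebrain CSF-1 libraries. In each region every IL-34 library lay under every CSF-1 library, yet no contrast passed the test. The difference was -0.39 in cerebellum (SE 0.124, adjusted p = 0.06), -0.28 as the mean of both regions (adjusted p = 0.056) and -0.37 for cerebellum against forebrain under IL-34 (adjusted p = 0.0737). Without cerebellum IL-34 replicate 3, the highest of its group, these were -0.53, -0.35 and -0.50 with adjusted p of 0.0168, 0.0144 and 0.0146, and without forebrain CSF-1 replicate 3 the difference in cerebellum also passed (0.0444). For cerebellum against forebrain as the mean of both ligands, the difference was -0.26 (adjusted p = 0.0613), and -0.32 (0.0128) without cerebellum IL-34 replicate 3. That difference also passed with median-of-ratios scaling (-0.26, 0.0431), with quantile normalization (-0.29, 0.0379) and over transcripts of at least 1000 nt with trends removed (-0.31, 0.0115), where the region difference under IL-34 passed as well (-0.39, 0.027). All P2ry2 signal was assigned to coding transcripts, so its values were unchanged in the fit over protein-coding transcripts only. In that fit, run over 10796 genes, the ligand difference passed in cerebellum (0.0498) and as the mean (0.0453). Median-of-ratios scaling took the ligand differences to -0.285 (0.154) in cerebellum and -0.21 (0.14) as the mean.

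P2rx4 (chr5:122707544-122729738, plus strand) encodes an ATP-gated cation channel known from lysosomes and the surface of microglia. It had 474, 499 and 464 TPM in cerebellum IL-34 libraries, against 326, 370 and 363 TPM in cerebellum CSF-1 libraries. In forebrain it had 430, 441 and 454 TPM with IL-34, against 364, 404 and 347 TPM with CSF-1. Every IL-34 library lay above every CSF-1 library, in either region. The group means were 479 ± 18.1 and 353 ± 23.5 TPM in cerebellum IL-34 and CSF-1 libraries, a ratio of 1.36, and 442 ± 11.99 and 372 ± 29.3 TPM in forebrain IL-34 and CSF-1 libraries, a ratio of 1.19 (SD, n = 3 each).

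P2rx4 rose with IL-34 in cerebellum (log2 difference 0.44, SE 0.0650, 95% interval 0.30 to 0.58, adjusted p = 0.0041) and as the mean of both regions (0.35, SE 0.0460, adjusted p = 0.00124). The forebrain difference of 0.25 missed the threshold (95% interval 0.11 to 0.39, adjusted p = 0.0959). The interaction, which asks whether the ligand difference itself differs between regions, was 0.19 for P2rx4 (95% interval -0.01 to 0.39, adjusted p = 0.438). Region made no called difference for P2rx4 (adjusted p = 0.261 under IL-34, 0.559 under CSF-1). The mean ligand difference was called in each of the 12 fits that left out a library and in every other alternative. In cerebellum alone, the difference without IL-34 replicates 1 and 2 was 0.39 (adjusted p = 0.139), with a single IL-34 library left that was assumed to vary like the other groups.

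Most P2rx4 signal was assigned to 3 protein-coding transcripts, whose group means did not share a pattern. P2rx4-202 (1887 nt) had 223 ± 12.7 TPM in cerebellum IL-34 and 161 ± 17.7 in cerebellum CSF-1 libraries, and 207.7 ± 12.7 in forebrain IL-34 and 176 ± 18.6 in forebrain CSF-1 libraries (SD, n = 3). P2rx4-206 (1111 nt) averaged 158 TPM in cerebellum IL-34, against 78.8, 73.5 and 70.7 TPM in cerebellum CSF-1, forebrain IL-34 and forebrain CSF-1 libraries. P2rx4-201 (2702 nt) had its lowest mean in cerebellum IL-34 libraries, with 76.2 ± 22.02 TPM under IL-34 and 96.9 ± 20.0 under CSF-1 in cerebellum, and had 151 ± 10.9 TPM under IL-34 and 112 ± 15.4 under CSF-1 in forebrain. The summed coding transcripts kept the gene's pattern, at 457 ± 14.4 and 337 ± 22.2 TPM in cerebellum IL-34 and CSF-1 libraries and 432 ± 15.9 and 359 ± 27.1 TPM in forebrain IL-34 and CSF-1 libraries. Splitting reads between overlapping transcripts is an estimate, and no transcript was tested. The 250 bases before the P2rx4 start site (RefSeq, GRCm38.p6, chr5:122707294-122707543, plus strand) are shown because P2rx4-201 begins at that site and P2rx4-202 begins 40 bases after it. None of 4 motifs searched on both strands lies in that window: the GC box GGGCGG, the PU.1 core GAGGAA, the AP-1 site TGANTCA and the CCAAT box, present in 32.7, 23.3, 6.75 and 33.8% of 32851 windows of the same length.
P2rx4: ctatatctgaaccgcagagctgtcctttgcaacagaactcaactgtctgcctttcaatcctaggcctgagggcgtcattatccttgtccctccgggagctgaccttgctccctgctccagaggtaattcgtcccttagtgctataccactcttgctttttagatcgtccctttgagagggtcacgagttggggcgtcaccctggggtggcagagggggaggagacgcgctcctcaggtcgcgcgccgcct

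P2rx7 (chr5:122643911-122691432, plus strand), the ATP-gated channel that acts upstream of the inflammasome, lies beside P2rx4 but did not follow it. It had 36.5, 45.7 and 38.3 TPM in cerebellum IL-34 and 38.7, 44.1 and 37.7 TPM in cerebellum CSF-1 libraries. In forebrain it had 52.0, 47.4 and 45.5 TPM with IL-34 and 48.8, 57.1 and 56.2 TPM with CSF-1. The ligand groups overlapped in both regions, and under CSF-1 every cerebellum library lay under every forebrain library. P2rx7 fell by 0.34 in cerebellum as the mean of both ligands (log2 difference -0.34, SE 0.0702, adjusted p = 0.00672), a call kept in all 12 fits that left out a library and in the other 8 alternatives. Under CSF-1 alone it fell by 0.42 (log2 difference -0.42, SE 0.0993, adjusted p = 0.0303), on 40.2 ± 3.43 TPM in cerebellum and 54.0 ± 4.58 TPM in forebrain. That call was lost without cerebellum CSF-1 replicate 1 or 3 or forebrain CSF-1 replicate 2 or 3 (adjusted p 0.0898 to 0.0942), with no filter on low values (0.0676) and with only its groups fitted (0.0611). Under IL-34 the difference of -0.26 did not pass (adjusted p = 0.103), but it was -0.39 over protein-coding transcripts (0.00968) and -0.49 over transcripts of at least 1000 nt with length and GC trends removed (2.52e-05). The non-coding transcript P2rx7-207 (480 nt) was listed at 10.7 TPM in cerebellum IL-34 replicate 2 and at 0 in all other libraries. Coding P2rx7 averaged 36.6 and 39.96 TPM in cerebellum IL-34 and CSF-1 libraries, and 48.2 and 52.5 TPM in forebrain.

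Entpd1 (chr19:40612366-40741602, plus strand) encodes CD39, the main ectonucleotidase of microglia, which removes ATP and ADP. It was the only member called in both the ligand and the region comparison with a higher value each time. It had 25.5, 27.8 and 34.5 TPM in cerebellum IL-34 libraries, against 18.1, 20.9 and 21.7 TPM in cerebellum CSF-1 libraries. In forebrain it had 18.2, 20.3 and 18.7 TPM with IL-34, against 12.8, 14.04 and 10.5 TPM with CSF-1. Every IL-34 library lay above every CSF-1 library of the same region, and every cerebellum library above every forebrain library under the same ligand. The means were 29.3 ± 4.65 and 20.2 ± 1.88 TPM in cerebellum IL-34 and CSF-1 libraries and 19.0 ± 1.10 and 12.4 ± 1.77 TPM in forebrain IL-34 and CSF-1 libraries (SD, n = 3 each).

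With IL-34, Entpd1 rose by 0.54 as the mean of both regions (SE 0.0891, 95% interval 0.35 to 0.74, adjusted p = 0.0038) and by 0.51 in cerebellum (SE 0.126, adjusted p = 0.0288). The forebrain difference was 0.58 (95% interval 0.31 to 0.86, adjusted p = 0.0555), and the interaction was not called (95% interval -0.47 to 0.31, adjusted p = 0.885). In cerebellum relative to forebrain it rose by 0.62 as the mean of both ligands (SE 0.0891, adjusted p = 0.000753), by 0.58 under IL-34 (adjusted p = 0.0123) and by 0.66 under CSF-1 (adjusted p = 0.0104). The mean differences held in every alternative tried. The ligand call in cerebellum was lost without IL-34 replicate 2 or 3 or CSF-1 replicate 1 or 2 (adjusted p 0.0636 to 0.105), without IL-34 replicates 1 and 2 together (0.75, 0.101), with no filter (0.0661) and with only its groups fitted (0.0624), and the one missed in forebrain was made without cerebellum IL-34 replicate 3 (adjusted p = 0.0381). A replicate block fitted within each region also lost the Entpd1 ligand call in cerebellum. Of the border macrophage genes, Pf4 also had its highest mean in cerebellum IL-34 libraries (106 TPM) and Mrc1 its lowest (25.5 TPM). The part of these genes in the Entpd1 results was not tested.

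The 2 most abundant Entpd1 transcripts start at separate sites. Entpd1-204 (2409 nt, coding), which begins 31 bases after the upstream start site, had 15.6, 13.7 and 14.4 TPM in cerebellum IL-34 and 11.3, 9.60 and 8.98 TPM in cerebellum CSF-1 libraries. The forebrain values were 12.1, 11.3 and 8.94 TPM with IL-34 and 5.50, 7.52 and 5.02 TPM with CSF-1. The ligand groups of Entpd1-204 did not overlap in either region. Entpd1-201 (4221 nt, coding), from the downstream start site, averaged 7.36 ± 0.631 and 6.27 ± 0.547 TPM in cerebellum IL-34 and CSF-1 libraries and 6.01 ± 0.651 and 4.61 ± 1.06 TPM in forebrain IL-34 and CSF-1 libraries, a narrower range.

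A short non-coding transcript, Entpd1-206 (628 nt), added 3.33, 6.23 and 10.9 TPM in cerebellum IL-34 libraries, against 0 to 6.42 TPM in cerebellum CSF-1, 0 to 2.39 in forebrain IL-34 and 0 to 1.79 in forebrain CSF-1 libraries. Coding Entpd1 alone was 21.9 ± 0.360 and 16.2 ± 1.61 TPM in cerebellum IL-34 and CSF-1 libraries and 17.6 ± 0.847 and 10.8 ± 2.24 TPM in forebrain IL-34 and CSF-1 libraries. Over protein-coding transcripts the region difference under IL-34 was 0.31 and no longer called (adjusted p = 0.116), while the ligand difference in forebrain was 0.68 and called (0.0195). The processed pseudogene Gm8783 lies within Entpd1 on the same strand and had 0 to 10.3 TPM.

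**Figure D2:**
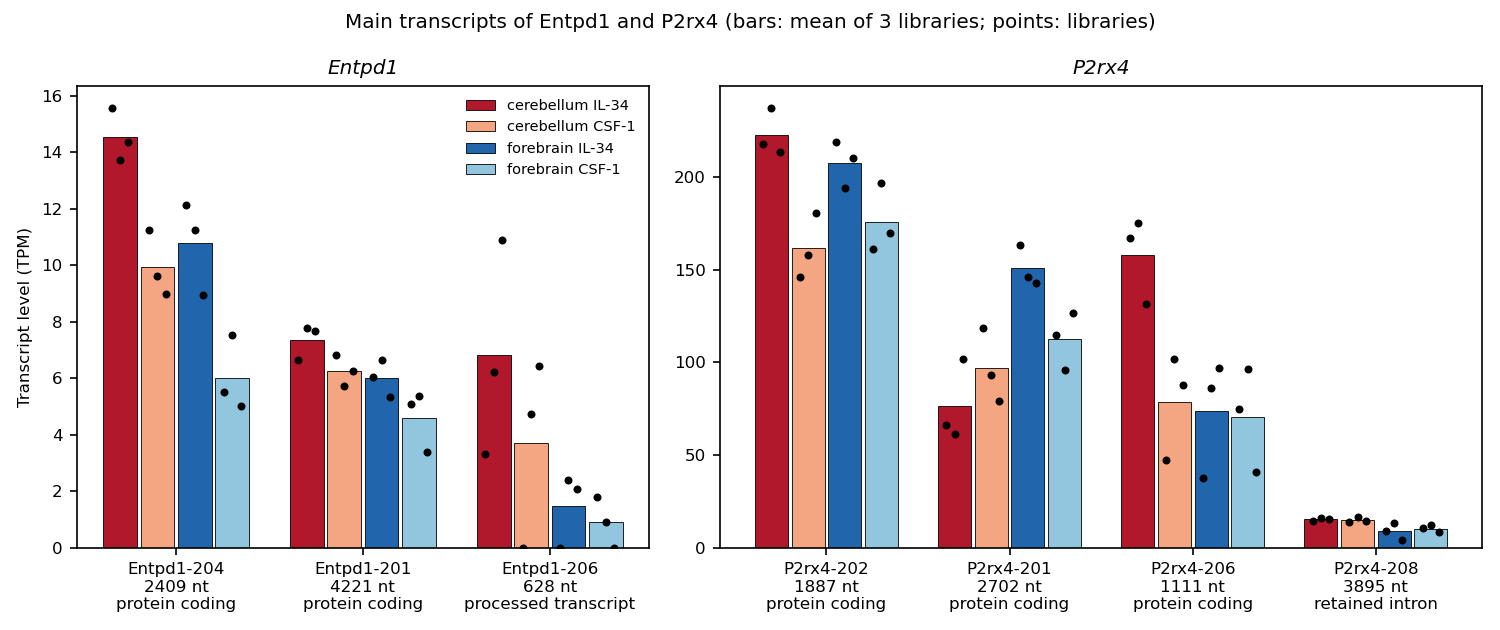
Level of the main transcripts of Entpd1 (left) and P2rx4 (right) in TPM, on linear axes that start at 0. Bars are means of 3 libraries and points are libraries, in the order cerebellum IL-34, cerebellum CSF-1, forebrain IL-34 and forebrain CSF-1. Entpd1-204 averages 14.6 TPM in cerebellum IL-34 and 6.01 TPM in forebrain CSF-1 libraries, and P2rx4-206 is highest in cerebellum IL-34 libraries at 158 TPM.

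The 250 bases before each Entpd1 start site are printed because the transcripts that begin there differ in how far their levels spread between the groups. Capitals mark CCAAT boxes (CCAAT on the plus strand, ATTGG for its reverse complement) and the PU.1 core GAGGAA. The upstream window, before Entpd1-204 (chr19:40612116-40612365), holds CCAAT boxes 113 and 81 bases before the start site. The downstream window, before Entpd1-201 (chr19:40659520-40659769), holds GAGGAA at 235 and 227 bases and a CCAAT box at 105 bases before its start site. These matches describe letters and are not measured binding sites.
Entpd1 upstream: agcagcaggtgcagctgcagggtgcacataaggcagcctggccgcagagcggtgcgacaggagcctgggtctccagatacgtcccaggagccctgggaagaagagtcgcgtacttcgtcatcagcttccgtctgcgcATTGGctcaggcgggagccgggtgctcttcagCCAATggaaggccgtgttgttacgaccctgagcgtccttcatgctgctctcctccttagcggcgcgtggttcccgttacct
Entpd1 downstream: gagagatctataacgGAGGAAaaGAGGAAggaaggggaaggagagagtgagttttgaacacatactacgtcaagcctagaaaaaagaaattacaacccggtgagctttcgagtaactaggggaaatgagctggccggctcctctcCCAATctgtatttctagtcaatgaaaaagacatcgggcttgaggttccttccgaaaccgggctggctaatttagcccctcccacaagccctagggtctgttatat

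Nt5e (chr9:88327197-88372092, plus strand), the enzyme that makes adenosine from AMP, had 0.936, 0.567 and 0.776 TPM in cerebellum IL-34 and 0.773, 0.564 and 0.606 TPM in cerebellum CSF-1 libraries. In forebrain it had 0.481, 0.313 and 0.403 TPM with IL-34 and 0.438, 0.539 and 0.626 TPM with CSF-1. All 12 values were under 1 TPM, so it did not pass the filter and was not tested in the main fit. With no filter on low values it was called in no contrast.

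Adora2b (chr11:62248984-62266453, plus strand), the low-affinity adenosine receptor, showed the largest region difference on the log2(TPM + 1) scale among the 9 members tested. It had 8.84, 6.996 and 8.28 TPM in cerebellum IL-34, against 13.5, 16.6 and 14.3 TPM in forebrain IL-34 libraries. Under CSF-1 it had 10.4, 9.01 and 11.8 TPM in cerebellum, against 17.1, 15.8 and 19.1 TPM in forebrain. All 6 cerebellum libraries lay under all 6 forebrain libraries. The means were 8.04 ± 0.945 TPM in cerebellum and 14.8 ± 1.65 TPM in forebrain under IL-34, and 10.4 ± 1.39 TPM in cerebellum and 17.3 ± 1.62 TPM in forebrain under CSF-1 (SD, n = 3 each).

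Adora2b fell in cerebellum by 0.81 under IL-34 (log2 difference -0.81, SE 0.122, adjusted p = 0.00207), by 0.69 under CSF-1 (log2 difference -0.69, adjusted p = 0.00714) and by 0.75 as their mean (log2 difference -0.75, 95% interval -0.94 to -0.56, adjusted p = 0.000171). The mean was called in every alternative tried. The difference under IL-34 was -0.76 without cerebellum IL-34 replicates 1 and 2 (adjusted p = 0.065). Its IL-34 mean lay under its CSF-1 mean in both regions, but no ligand contrast passed (log2 difference -0.27 as the mean, adjusted p = 0.0581). That mean was -0.32 without cerebellum CSF-1 replicate 2 (0.0462). The summed astrocyte list was lower in cerebellum too (14.5 to 19.8 TPM in cerebellum against 28.9 to 31.7 TPM in forebrain). So was the mesenchymal list, mostly Acta2 and Tagln (4.73 to 7.83 TPM in cerebellum against 11.5 to 19.1 TPM in forebrain). The part of both lists in this result was not tested. The promoter window of Adora2b is shown for its 6 GC boxes (GGGCGG, or CCGCCC for its reverse complement), at 222, 171, 99, 57, 35 and 9 bases before the start site, with a CCAAT box at 67 bases (chr11:62248734-62248983, plus strand, RefSeq GRCm38.p6, matches in capitals).
Adora2b: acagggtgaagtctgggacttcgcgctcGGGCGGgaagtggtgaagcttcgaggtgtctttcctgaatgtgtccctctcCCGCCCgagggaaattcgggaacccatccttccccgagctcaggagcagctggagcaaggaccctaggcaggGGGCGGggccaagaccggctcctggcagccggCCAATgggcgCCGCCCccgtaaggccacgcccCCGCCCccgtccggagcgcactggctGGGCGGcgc

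Adora3 (chr3:105870858-105908926, plus strand), the adenosine receptor coupled to inhibitory G proteins, had 7.16, 4.52 and 4.88 TPM in cerebellum IL-34 and 7.50, 5.83 and 6.87 TPM in cerebellum CSF-1 libraries. It had 6.61, 5.02 and 5.02 TPM in forebrain IL-34 and 6.52, 4.50 and 7.48 TPM in forebrain CSF-1 libraries. All groups overlapped and no contrast passed. For the mean ligand difference the 95% interval was -0.49 to 0.11, and for the mean region difference it was -0.25 to 0.35. Adora3 shares its locus and strand with Tmigd3, which had 0 to 0.731 TPM, so reads can be split between them.

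**Figure D3:**
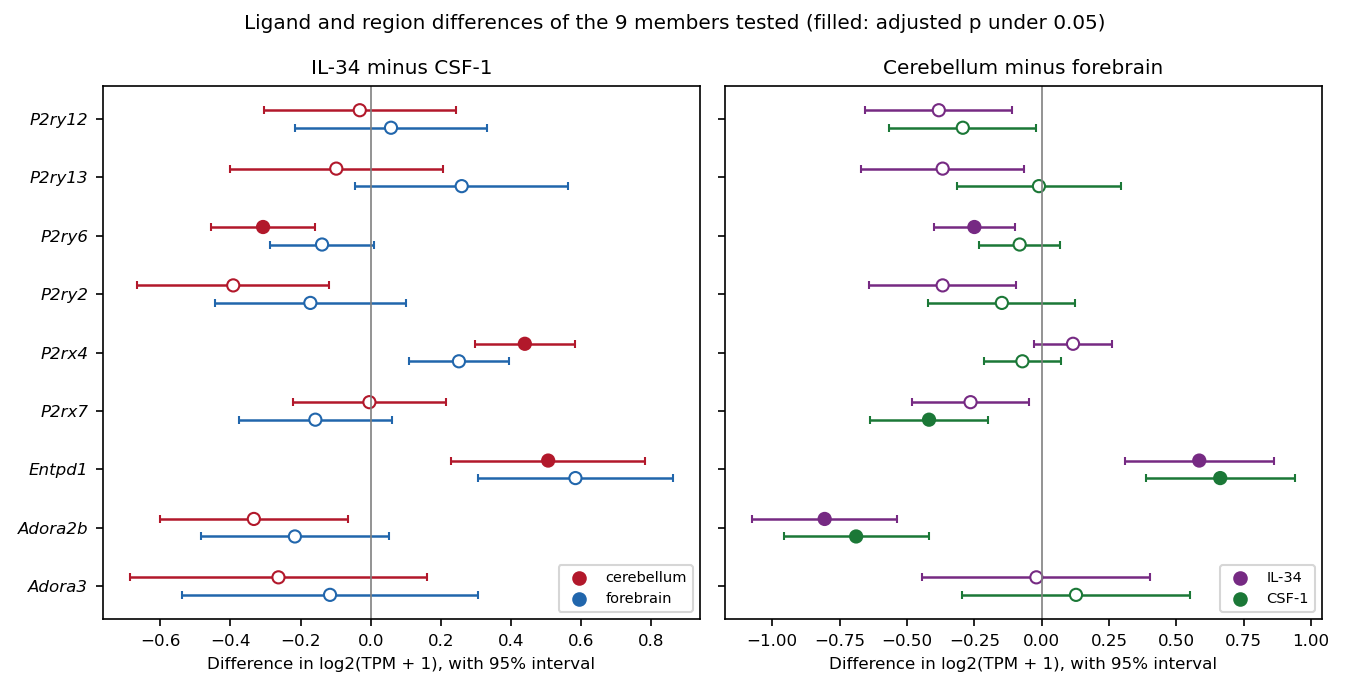
Differences in log2(TPM + 1) for the 9 members tested, with 95% intervals from limma: IL-34 minus CSF-1 in each region (left) and cerebellum minus forebrain under each ligand (right). Filled points have an adjusted p under 0.05 over 12419 genes. P2rx4 and Entpd1 lie right of 0 on the left panel in both regions, and Adora2b lies left of 0 on the right panel at -0.81 and -0.69.

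Counted over the 9 members tested, IL-34 against CSF-1 in cerebellum called 3 members, P2rx4 and Entpd1 higher and P2ry6 lower, where 12.8% of all genes tested were called (3% higher and 9.82% lower). As the mean of both regions P2rx4, Entpd1 and P2ry6 again passed, 3 of 9, against a background of 13.4% (2.73% higher and 10.7% lower). In forebrain no member passed in limma, where 1.2% of all genes did (0.427% higher and 0.773% lower), and 2 members, P2rx4 and Entpd1, had an unadjusted p under 0.05, as did 1769 of the 12419 genes. The interaction called no member either, with a background of 0.145% (0.121% higher and 0.0242% lower) and no member at an unadjusted p under 0.05, where 1505 of all genes were. The ligand groups did not overlap for 5 members in cerebellum and 3 in forebrain, against 36.2 and 18.5% of all genes. The members' median difference was -0.10 in cerebellum and -0.12 in forebrain, beside -0.10 and -0.04 over all genes.

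For cerebellum against forebrain, 3 members were called under IL-34 (Entpd1 higher, Adora2b and P2ry6 lower), with 13.5% of all genes called (5.27% higher and 8.22% lower). Under CSF-1 again 3 were called (Entpd1 higher, Adora2b and P2rx7 lower), with a background of 6.71% (3.29% higher and 3.42% lower). As the mean of both ligands 5 members were called, Entpd1 higher and Adora2b, P2rx7, P2ry12 and P2ry6 lower, where 20.1% of all genes were (9.58% higher and 10.6% lower). Groups did not overlap for 6 members under IL-34 and 4 under CSF-1, against 32.9 and 29.4% of all genes. The members' median region difference was -0.26 under IL-34 and -0.08 under CSF-1, beside -0.02 and 0.03 over all genes. Ligand and region contrasts share libraries, so their calls are not separate evidence.

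Correlations between genes were taken over the 12 libraries, which fall into 4 groups, so group differences enter them. The highest Pearson correlation between members on log2(TPM + 1) was 0.76, for P2ry6 with P2ry2, and the lowest was -0.89, for P2ry6 with Entpd1. P2rx4 and Entpd1 correlated at 0.65. Among 8713 protein-coding genes with at least 5 TPM on average, Hvcn1, Creg1 and Csf3r were most like Entpd1 (r of 0.957, 0.939 and 0.935), and Ypel3, Fabp5 and Hist1h2bc most like P2rx4 (0.95, 0.941 and 0.935). S100a6, Phlda3 and Tmsb4x were most like Adora2b (0.972, 0.971 and 0.967), and Ybx3, Gnb2 and Myadm most like P2ry6 (0.969, 0.967 and 0.961). Ccr3, Tor1aip2 and Gramd3 followed P2ry12 most closely (0.951, 0.933 and 0.926), and Tmem104, Eva1a and Ahnak followed P2rx7 (0.944, 0.913 and 0.911). These are descriptions, picked as the highest of many, and levels within a library share its scaling.

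Of 44 other genes listed with purine signalling, 29 were tested. None of the 5 other P2X channels and neither Adora1 nor Adora2a reached the filter. The G protein coupled receptors P2ry1, P2ry14 and Gpr34, at 0.738 to 3.76 TPM, were called in no contrast. IL-34 against CSF-1 as the mean of both regions called 1 gene higher and 5 lower, and cerebellum against forebrain as the mean of both ligands called 4 higher and 9 lower, beside the backgrounds given above. By region and ligand, the calls were 1 higher and 3 lower for IL-34 in cerebellum, 1 lower in forebrain, 2 higher and 8 lower for cerebellum under IL-34, and 3 higher and 5 lower under CSF-1. Over all genes, 12.8, 1.2, 13.5 and 6.71% were called in that order.

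The inflammasome sensor Nlrp3, which P2rx7 activity triggers, fell with IL-34 in both regions. It had 18.6, 15.6 and 16.8 TPM in cerebellum IL-34, against 25.6, 24.7 and 24.8 TPM in cerebellum CSF-1 libraries, and 21.6, 20.0 and 20.0 TPM in forebrain IL-34, against 27.0, 28.1 and 31.9 TPM in forebrain CSF-1 libraries. The groups did not overlap in either region. The log2 difference was -0.53 in cerebellum (SE 0.0814, adjusted p = 0.00472), -0.48 in forebrain (adjusted p = 0.0201) and -0.51 as the mean (adjusted p = 0.000513). The forebrain call was lost without forebrain IL-34 replicate 2 or 3 or forebrain CSF-1 replicate 2 or 3 (adjusted p 0.0669 to 0.112) and with only its groups fitted (0.134), and the cerebellum call without cerebellum IL-34 replicates 1 and 2 (0.0772). Nlrp3 was also lower in cerebellum as the mean of both ligands (log2 difference -0.23, adjusted p = 0.0163, and 0.0565 without those replicates).

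The inflammasome adaptor Pycard rested on a pair of libraries. It had 67.1, 83.6 and 28.0 TPM in cerebellum IL-34, against 23.9, 25.3 and 24.3 TPM in cerebellum CSF-1 libraries and 21.7 to 24.5 TPM in forebrain. Its ligand difference in cerebellum was 1.11 (adjusted p = 0.0338) and its region difference under IL-34 was 1.12 (adjusted p = 0.0274). Without IL-34 replicates 1 and 2 these were 0.19 (0.385) and 0.20 (0.349), and over transcripts of at least 1000 nt with trends removed they were 0.29 (0.0147) and 0.23 (0.0328). The ligand call was also lost without any cerebellum CSF-1 library (adjusted p 0.0678 to 0.0953) and the region call without any forebrain IL-34 library (0.0666 to 0.0725). Without IL-34 replicate 1 the differences were 0.96 (0.103) and 0.97 (0.0972), and without replicate 2 they were 0.80 (0.116) and 0.81 (0.0953). Casp1, the protease of the same complex, fell in cerebellum under IL-34 (log2 difference -0.25, adjusted p = 0.0136) and as the mean of both ligands (-0.18, adjusted p = 0.00971), but over transcripts of at least 1000 nt with trends removed neither passed (adjusted p = 0.779 and 0.927), and the first call was lost without cerebellum IL-34 replicate 1 (0.0518) or 2 (0.0529).

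Among the enzymes that act on extracellular nucleotides, Cd38, which consumes NAD, had the smallest adjusted p for region. It had 1.44 ± 0.111 TPM in cerebellum and 5.10 ± 0.309 TPM in forebrain under IL-34, and 1.04 ± 0.0945 and 3.57 ± 0.570 TPM under CSF-1 in cerebellum and forebrain (SD, n = 3 each), a mean log2 difference of -1.24 (SE 0.0882, adjusted p = 5.8e-06). It also rose with IL-34 as the mean of both regions (0.34, adjusted p = 0.0284), a call lost without cerebellum IL-34 replicate 2, cerebellum CSF-1 replicate 1 or 2, forebrain IL-34 replicate 2 or 3, or forebrain CSF-1 replicate 2 or 3 (adjusted p 0.0508 to 0.0662). That call was also lost with no filter on low values and with a replicate block, over all groups or within each region. Enpp2, which encodes autotaxin, had 11.6 ± 6.99 TPM in cerebellum and 0.302 ± 0.162 TPM in forebrain under IL-34, and 10.04 ± 3.01 and 0.293 ± 0.0498 TPM under CSF-1 in cerebellum and forebrain, a mean log2 difference of 3.09 (adjusted p = 1.4e-05), or 4.71 with a pseudocount of 0.1. Choroid plexus epithelium is known for high Enpp2, and the choroid plexus list moved with it, at 9.41 to 39.2 TPM in cerebellum and 0.212 to 1.01 TPM in forebrain; its part in this result was not tested. Enpp4 (-0.60, adjusted p = 0.000103) and Enpp1 (-0.42, adjusted p = 0.00964), which cleave nucleotides, were lower in cerebellum as the mean of both ligands. Entpd6, an intracellular relative of Entpd1, fell with IL-34 as the mean of both regions (-0.34, adjusted p = 0.0119), a call lost with a replicate block within each region. The Enpp1 call was lost over protein-coding transcripts only (0.0524) and the Entpd6 call without cerebellum IL-34 replicates 1 and 2 (0.0891).

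Of 7 genes of adenosine and nucleoside handling tested, 1 was called higher and 3 lower in cerebellum as the mean of both ligands, 2 lower under IL-34, and 1 higher and 2 lower under CSF-1. Over all genes, 20.1, 13.5 and 6.71% were called in that order. Ada, Slc29a1 and Slc29a2 were called in no contrast. Adk, the kinase that removes intracellular adenosine, averaged 24.4 and 28.8 TPM in cerebellum IL-34 and CSF-1 libraries and 33.5 and 39.2 TPM in forebrain IL-34 and CSF-1 libraries. It fell in cerebellum (log2 difference -0.44 as the mean, adjusted p = 0.000195) and with IL-34 (-0.23 as the mean, adjusted p = 0.0167). The ligand call was lost with median-of-ratios scaling (-0.15, 0.0653), quantile normalization (0.0553) and a replicate block within each region. The purine phosphorylase Pnp was lower in cerebellum (-0.23, adjusted p = 0.000602), as was the nucleoside transporter Slc28a2 (-0.36, adjusted p = 0.0339), while the lysosomal nucleoside transporter Slc29a3 was higher (0.31, adjusted p = 0.00178). Over transcripts of at least 1000 nt with trends removed these were -0.14 for Pnp and 0.20 for Slc29a3, both still called. The Slc28a2 call rested on means of 0.716 to 1.34 TPM and was lost without any cerebellum IL-34 library, cerebellum CSF-1 replicate 1 or 2, forebrain IL-34 replicate 2 or 3, or forebrain CSF-1 replicate 1 or 2 (adjusted p 0.0511 to 0.0797). Of the ATP release genes, the connexin Gja1 was lower in cerebellum (-0.78, adjusted p = 0.0028). Gja1 is also an astrocyte marker, its means were 1.21 to 3.69 TPM, and the astrocyte list was lower alongside it; its part in this result was not tested. The channel Panx1 was higher in cerebellum by 0.22 (adjusted p = 0.0438) but at -0.0329 over protein-coding transcripts alone, and of the fits that left out a library it was called only without forebrain IL-34 replicate 2 or forebrain CSF-1 replicate 1 (others 0.0627 to 0.0949).

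The 6 receptor partners tested include Nlrp3, Pycard and Casp1, described above. IL-34 against CSF-1 called 1 of the 6 higher and 3 lower in cerebellum and 1 lower in forebrain, where 12.8 and 1.2% of all genes were called. Cerebellum against forebrain called 1 higher and 2 lower under IL-34 and 1 higher under CSF-1, where 13.5 and 6.71% of all genes were called. Gnaq, the G protein subunit through which P2ry6 signals, was called in no contrast. Gnai2, an inhibitory G protein subunit through which P2ry12 signals, had 983 and 1153 TPM on average in cerebellum IL-34 and CSF-1 libraries, a log2 difference of -0.23 (adjusted p = 0.0148), which was -0.12 (0.0895) under median-of-ratios scaling and was lost without cerebellum IL-34 replicate 2 (0.0599) or cerebellum CSF-1 replicate 1 or 2 (0.0547 each). Kcnk13 (THIK-1), the potassium channel of resting microglia, had 72.9 and 85.2 TPM in cerebellum IL-34 and CSF-1 libraries (-0.22, adjusted p = 0.047), and -0.11 (0.179) under that scaling. Of the fits that left out a library, that ligand call was kept only without forebrain IL-34 replicate 1 or 3 (others 0.0518 to 0.158). Kcnk13 was higher in cerebellum as the mean of both ligands (0.23, adjusted p = 0.00631). Among genes beside the members, Camkk2, next to P2rx4, had 37.7 to 53.9 TPM and Fchsd2, next to P2ry2, had 17.2 to 20.8 TPM.

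**Figure D4:**
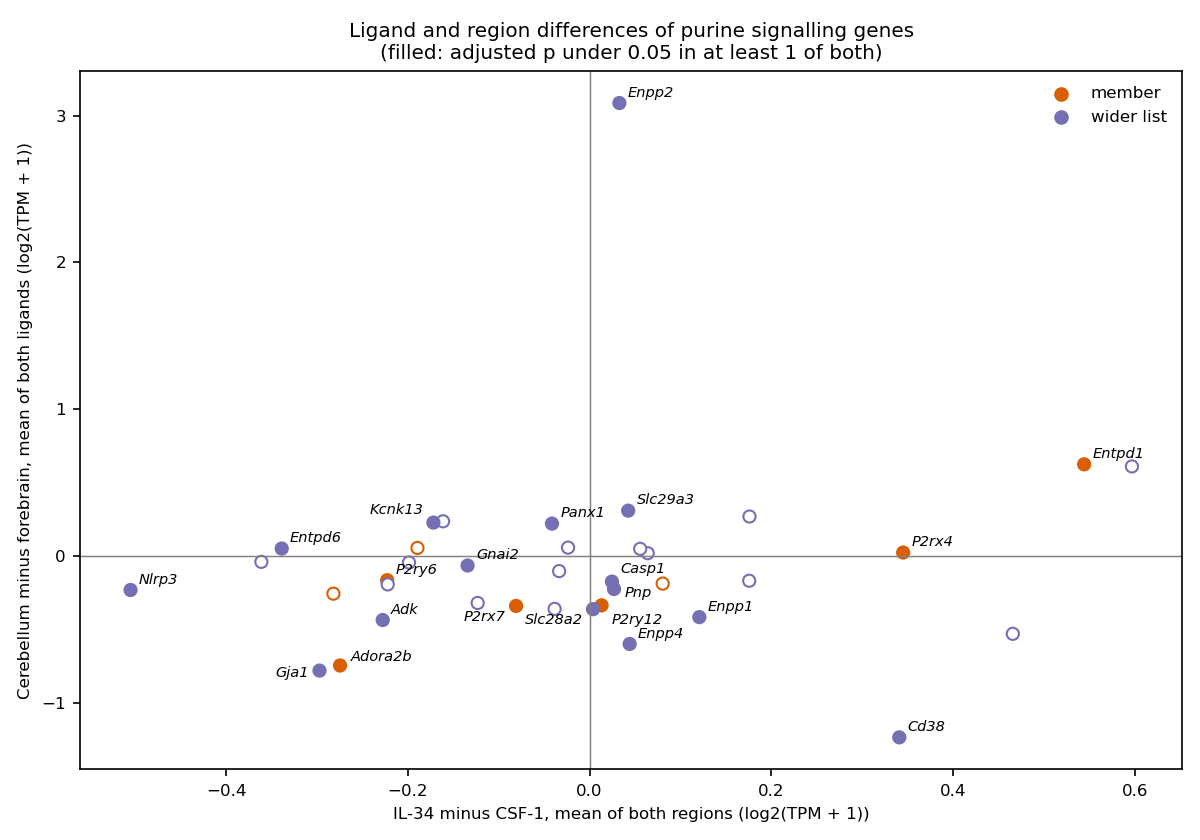
Mean ligand difference (IL-34 minus CSF-1, x axis) against mean region difference (cerebellum minus forebrain, y axis) in log2(TPM + 1), for the 9 members and 29 wider genes tested. Filled points were called for at least 1 of both. Entpd1 lies in the upper right at 0.54 and 0.62, Nlrp3 is farthest left at -0.51, and Enpp2 and Cd38 lie at the extremes of the y axis at 3.09 and -1.24.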

How the data were processed

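RNA was measured in 12 libraries. Per the labels' protocols, cDNA came from an ultra low input SMART-Seq v4 kit, a chemistry without strand information. The labelled extraction text describes human tissue, although all other labels are mouse. The authors deposited TPM per Ensembl transcript, and the submitters' processing notes name kallisto 0.43.0 and GRCm38. Any filter or bias correction is not stated there. TPM carries no depth, so no counting interval is given, and a rise in some transcripts lowers the others.

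TPM was summed per gene. limma 3.58.1 in R 4.3.3 was fitted to log2(TPM + 1) with 4 group means, a variance trend and 8 residual degrees of freedom. Benjamini-Hochberg adjustment ran over the 12419 genes that reached 1 TPM in 3 or more of the 12 libraries, and genes with an adjusted p under 0.05 were called, two-sided, in 7 contrasts. Differences on this scale understate changes of low genes. Intervals are 95%. All adjusted p-values are from limma.

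The text names all members, the wider genes called in at least 1 contrast, the 3 protein-coding genes most correlated with each called member, and genes beside or overlapping members. The members and lists were chosen with earlier results of these data known. Of the 115879 transcripts, 98.6% were found in GENCODE M21 (GRCm38), which gave gene positions and transcript types. Promoter sequences are from RefSeq GRCm38.p6, where 9 of 10 members had a window. No pair among the 66 library pairs held identical values. The script was tested on simulated data. Alternatives covered the pseudocount (0.1), no filter on low values, median-of-ratios and quantile scaling, and only the groups compared. A replicate block was fitted over all groups and, for the ligand contrasts and the interaction, within each region. Others were transcripts of at least 1000 nt with lowess trends (span 0.3) of length and GC content removed, protein-coding transcripts only, and leaving out each library. Leaving out cerebellum IL-34 replicates 1 and 2 together was chosen after seeing the data.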

Additional observations from a re-analysis of the deposited data

How the results depend on the processing

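The count of members called was 0 for the ligand in forebrain, and 1 with median-of-ratios scaling, with quantile normalization and over protein-coding transcripts only (Entpd1 each time), and 2 over transcripts of at least 1000 nt with trends removed (P2rx4 and Entpd1). For the ligand in cerebellum the 3 calls became 1 with a replicate block fitted within each region and 0 without cerebellum IL-34 replicates 1 and 2. As the mean of both regions they became 5 over protein-coding transcripts only, with P2ry2 and Adora2b added. All signal of P2ry2 and Adora2b was coding, so their values were unchanged in that fit. For region under IL-34 the 3 calls became 6 with trends removed and 1 without cerebellum IL-34 replicates 1 and 2. Leaving out each library in turn gave 0 to 1 calls for the ligand in forebrain, 1 to 4 in cerebellum and 3 to 4 as the mean, 0 to 0 for the interaction, and 2 to 3 calls for region under CSF-1, 2 to 5 under IL-34 and 3 to 5 as the mean. Directions were followed for member differences with an unadjusted p under 0.05 in limma and for calls in the wider list. Among these the only direction that turned was the region difference of Panx1, at -0.0329 over protein-coding transcripts only.

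Counts over all genes moved more. Over the alternatives, the 149 calls for the ligand in forebrain ranged from 0 (only its groups fitted) to 892 (trends removed), and the 1593 calls in cerebellum from 67 (without cerebellum IL-34 replicates 1 and 2) to 1832. The 1667 calls as the mean of both regions ranged from 395 to 2081, and the 18 for the interaction from 1 to 132. For region, the 833 calls under CSF-1 ranged from 413 to 1804, the 1675 under IL-34 from 250 (without those replicates) to 2139, and the 2502 as the mean from 1074 (likewise) to 3217. In the wider list, the forebrain ligand call (1) ranged from 0 to 5, the 4 cerebellum ones from 0 to 6 and the 6 mean ones from 1 to 8, and the 8 and 10 region calls under CSF-1 and IL-34 reached 5 to 13 and 3 to 12.

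Same-numbered libraries did not deviate together over the groups compared: 5 of 18 pairs had a correlation over 0.1 (range -0.454 to 0.458), 3 of them between cerebellum CSF-1 and forebrain IL-34 (0.458, 0.17 and 0.259), which were not compared with each other, and the same number correlated best in 8 of 36 comparisons. A replicate block over all groups gave 4 member calls for the ligand in cerebellum, 4 as the mean, 3 for region under IL-34 and 5 as the mean. In all 4 of these P2ry2 was called (adjusted p 0.0458, 0.0385, 0.0444 and 0.0344), and P2ry6 was not called in the region contrasts (0.0606 under IL-34 and 0.0583 as the mean). TPM values carry no depth, so precision rests on 3 libraries a group. The low member Nt5e entered only the fit with no filter on low values, where it was not called.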
